A study of Rattus norvegicus with 12 samples.

Results

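The BMP response genes followed here are 9 targets of bone morphogenetic protein (BMP) signalling, chosen by gene symbol: Id1, Id2, Id3, Id4, Smad6, Smad7, Atoh8, Bambi and Dlx5. All 9 were found among the 14300 genes of the array, each as 1 transcript cluster, that is 1 set of probes for a gene. They were measured in 3 zones, namely SZ (superficial) and IDZ (intermediate/deep), which belong to articular cartilage, and RZ (resting), which belongs to the growth plate, with 4 Affymetrix Rat Gene 1.0 ST arrays per zone. All 12 RNA samples came from the proximal tibial epiphyses of untreated Sprague-Dawley rats 10 days old, and the zones were cut from stained sections by hand. Each SZ sample held both tibias of 1 animal, whereas each IDZ and RZ sample pooled 2 animals. A given number stands for 1 animal pair in both IDZ and RZ, and 4 of these 8 animals also gave the tissue for SZ. Values are on a log2 scale, where a difference of 1 is a doubling.

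BMPs are secreted ligands that bind pairs of serine/threonine kinase receptors on the cell surface. The receptors phosphorylate SMAD1, SMAD5 and SMAD9, which enter the nucleus with SMAD4 and switch on target genes. In the epiphysis the pathway is known for driving cartilage formation and growth plate chondrocyte differentiation, and it is held in check by secreted antagonists and by inhibitors that its own targets encode. The Id genes, Smad6, Smad7 and Bambi are such targets, and the transcription factors Atoh8 and Dlx5 also respond to BMP.

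BMP-activated SMAD complexes are known to bind a GC element, GGCGCC, and a variant of it, here the A form, GGAGCC, often beside a SMAD box, GTCT, to which SMAD4 binds. The promoters of 7 of the 9 members matched by symbol in the RefSeq table (build GRCr8), and Smad6 and Dlx5 did not. The window printed is the 200 bases from 250 to 51 bases before the gene start, 5′ to 3′ on the strand of the gene, and capitals mark the GC element, the A form and the SMAD box on either strand. Id1 and Id3 are shown because they were highest in SZ together, Atoh8 because it was highest in IDZ, and Bambi because it was the one member lowest in IDZ. Their windows lay at chr3:161671314-161671513 (plus strand) for Id1, chr5:153656041-153656240 (plus strand) for Id3, chr4:105850430-105850629 (minus strand) for Atoh8 and chr17:58821054-58821253 (minus strand) for Bambi.
Id1: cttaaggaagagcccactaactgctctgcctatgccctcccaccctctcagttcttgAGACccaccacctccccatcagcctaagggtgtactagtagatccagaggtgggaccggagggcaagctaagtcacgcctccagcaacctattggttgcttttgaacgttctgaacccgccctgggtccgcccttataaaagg
Id3: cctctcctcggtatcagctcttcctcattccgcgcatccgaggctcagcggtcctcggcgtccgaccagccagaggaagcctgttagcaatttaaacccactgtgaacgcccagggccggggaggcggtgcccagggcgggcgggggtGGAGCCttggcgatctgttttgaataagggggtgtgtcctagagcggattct
Atoh8: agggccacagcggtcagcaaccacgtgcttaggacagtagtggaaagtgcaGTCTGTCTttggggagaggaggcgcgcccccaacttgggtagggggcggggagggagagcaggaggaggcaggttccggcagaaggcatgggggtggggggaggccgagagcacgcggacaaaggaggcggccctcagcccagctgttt
Bambi: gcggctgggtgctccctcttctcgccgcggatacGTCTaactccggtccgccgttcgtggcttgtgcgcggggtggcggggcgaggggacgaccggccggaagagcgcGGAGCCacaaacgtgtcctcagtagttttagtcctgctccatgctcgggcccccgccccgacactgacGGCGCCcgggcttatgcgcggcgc

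Bambi held 1 GC element, 1 A form and 1 SMAD box, and Id3 held 1 A form. The SMAD box matched once in Id1 and in 2 adjoining copies in Atoh8. Of the windows not printed, Smad7 held 1 GC element and 1 SMAD box, Id4 held 1 SMAD box, and Id2 held none of them. Among all 33465 promoters cut to the same window, 6.56% held the GC element, 18.4% the A form and 77.6% the SMAD box. The joint form GGCGCCNNNNNGTCT was in 0.0299% of all promoters and the joint form GGAGCCNNNNNGTCT in 0.0837%, where N is any base and the short motifs are contained in them, and neither was in any of the 7 members.

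The array medians lay between 6.76 and 6.90, and SZ replicate 4 stood apart, with the top median and an interquartile range of 2.24, the least of all arrays (the widest was 2.91). Prg4, the lubricin of the joint surface, averaged 12.78 in SZ, 10.31 in IDZ and 5.68 in RZ. On IDZ arrays 1 to 4 Prg4 measured 10.61, 10.80, 10.95 and 8.86, so IDZ replicate 4 lay well below the other IDZ arrays. Col10a1, the collagen of hypertrophic chondrocytes, averaged 6.99 in SZ, 7.81 in IDZ and 8.30 in RZ. The 8 chondrocyte markers measured averaged 11.82 to 12.13 in SZ, 12.87 to 12.96 in IDZ and 12.75 to 12.98 in RZ.

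The 9 genes did not vary across the zones as 1 group. Id1, Id3 and Smad6 were highest in SZ, Atoh8, Dlx5 and Id4 were highest in IDZ, and Smad7 was lower in RZ than in both articular zones, whose arrays overlapped. Zone means were lowest in RZ for 8 of the 9 members, against 31.0% of all genes, and Bambi was the exception. For Id4 this rested on means of 7.53 in SZ and 7.52 in RZ. RZ was below both articular zones at an adjusted p under 0.05 (limma) only for Smad7, Atoh8 and Dlx5. The largest differences among the members were those of Dlx5 between IDZ and RZ (2.96-fold higher in IDZ), and of Smad6 and Id3 between SZ and RZ (2.33- and 2.27-fold higher in SZ).

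**Figure D1:**
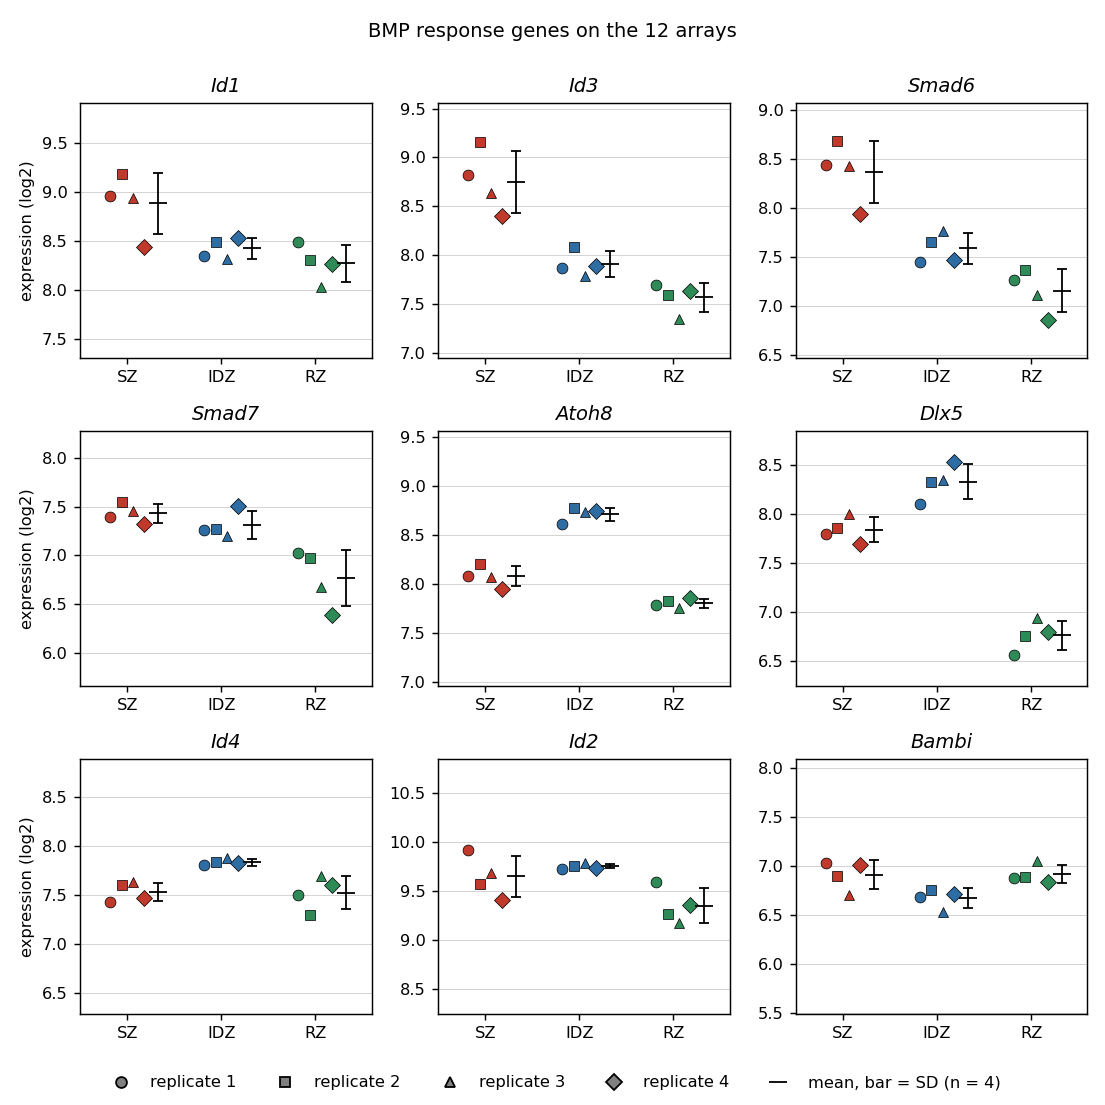
Expression of the 9 BMP response genes on each of the 12 arrays (y axis, log2) by zone (x axis, SZ, IDZ, RZ); symbols are replicates 1 to 4, and the bar is the mean with SD (n = 4). Id3, Smad6, Atoh8 and Dlx5 separated all 3 zones without overlap, with SZ highest for Id3 and Smad6 and IDZ highest for Atoh8 and Dlx5.

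The Id genes encode helix-loop-helix proteins without a DNA-binding region, which pair with E proteins and keep them off DNA. Id1 measured 8.96, 9.18, 8.94 and 8.44 on SZ arrays 1 to 4, against 8.34, 8.49, 8.31 and 8.53 on the IDZ arrays and 8.49, 8.30, 8.03 and 8.26 on the RZ arrays. SZ replicates 1, 2 and 3 lay above every IDZ and RZ array, and SZ replicate 4 lay among them. Id1 was higher in SZ than in IDZ by 0.46 (SE 0.14, 1.38-fold, limma with Benjamini-Hochberg adjustment over all clusters, adjusted p = 0.028) and higher in SZ than in RZ by 0.61 (SE 0.14, adjusted p = 0.005), whereas IDZ and RZ differed by 0.15 (95% interval −0.15 to 0.45, adjusted p = 0.64). With the pair of animals as a block the difference between SZ and IDZ was 0.52 at an adjusted p of 0.071. The call also ended without SZ replicate 1, 2 or 3 or IDZ replicate 1 or 3 (difference 0.36 to 0.44, adjusted p = 0.06 to 0.09).

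Id3 measured 8.82, 9.16, 8.64 and 8.40 on SZ arrays 1 to 4, against 7.87, 8.09, 7.79 and 7.89 on the IDZ arrays and 7.70, 7.60, 7.35 and 7.64 on the RZ arrays. The 3 zones did not overlap, and the arrays fell in the order SZ, IDZ, RZ. Id3 was 1.79-fold higher in SZ than in IDZ (log2 difference 0.84, SE 0.14, adjusted p = 4.1e-04) and 2.27-fold higher in SZ than in RZ (1.18, SE 0.14, adjusted p = 1.4e-05). IDZ and RZ differed by 0.34, which did not pass the test (SE 0.14, adjusted p = 0.20).

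Id4 measured 7.43, 7.60, 7.63 and 7.47 on SZ arrays 1 to 4, against 7.80, 7.83, 7.88 and 7.82 on the IDZ arrays and 7.50, 7.29, 7.69 and 7.60 on the RZ arrays. Every IDZ array lay above every SZ and RZ array, and SZ and RZ overlapped. Id4 was lower in SZ than in IDZ by a log2 difference of −0.30 (SE 0.10, adjusted p = 0.036), and IDZ differed from RZ by 0.32 at an adjusted p of 0.067. The call between SZ and IDZ ended without SZ replicate 1 or any 1 of the IDZ replicates (difference −0.31 to −0.27, adjusted p = 0.061 to 0.10). The difference was −0.37 at an adjusted p of 0.046 with the pair of animals as a fixed block, −0.28 at 0.060 with that pair as a random block and −0.30 at 0.054 with the label number as a block. IDZ and RZ were called apart without SZ replicate 4 (0.32, adjusted p = 0.027).

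Id2 measured 9.92, 9.57, 9.68 and 9.41 on SZ arrays 1 to 4, against 9.72, 9.75, 9.78 and 9.73 on the IDZ arrays and 9.59, 9.26, 9.17 and 9.36 on the RZ arrays. The IDZ arrays lay close together and above all RZ arrays, while the SZ arrays spread from below IDZ to above it and overlapped with RZ. None of the 3 differences passed the test, and those of IDZ and RZ (0.40, SE 0.11, adjusted p = 0.052) and of SZ and RZ (0.30, SE 0.11, adjusted p = 0.083) came nearest. Id2 was called higher in IDZ than in RZ without SZ replicate 1 or 4 or RZ replicate 1 (0.40 to 0.48, adjusted p = 0.014 to 0.038), and higher in SZ than in RZ without SZ replicate 4 or RZ replicate 1 (0.38 for both, adjusted p = 0.014 and 0.035).

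Smad6 encodes an inhibitory SMAD that acts chiefly on BMP receptor signalling. Smad6 measured 8.44, 8.69, 8.43 and 7.94 on SZ arrays 1 to 4, against 7.45, 7.66, 7.77 and 7.47 on the IDZ arrays and 7.27, 7.37, 7.12 and 6.86 on the RZ arrays. As with Id3, the zones did not overlap and fell in the order SZ, IDZ, RZ. Smad6 was 1.72-fold higher in SZ than in IDZ (0.79, SE 0.15, adjusted p = 0.0013) and 2.33-fold higher in SZ than in RZ (1.22, SE 0.15, adjusted p = 2.1e-05). The step between IDZ and RZ, 0.43, did not pass with all arrays (SE 0.15, adjusted p = 0.12) and passed without SZ replicate 4, at 0.43 and an adjusted p of 0.021.

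Smad7, the other inhibitory SMAD, blocks both TGF-beta and BMP receptors. Smad7 measured 7.39, 7.55, 7.45 and 7.32 on SZ arrays 1 to 4, against 7.26, 7.27, 7.20 and 7.51 on the IDZ arrays and 7.03, 6.97, 6.68 and 6.39 on the RZ arrays. All 8 articular arrays lay above all 4 RZ arrays, and SZ and IDZ overlapped. Smad7 was 1.58-fold higher in SZ than in RZ (0.66, SE 0.13, adjusted p = 0.0015) and 1.46-fold higher in IDZ than in RZ (0.54, SE 0.13, adjusted p = 0.020), and SZ and IDZ differed by 0.12 (95% interval −0.16 to 0.39, adjusted p = 0.58). The difference between IDZ and RZ was 0.54 at an adjusted p of 0.053 with the pair of animals as a block, and 0.42 to 0.55 at an adjusted p of 0.053 to 0.063 without IDZ replicate 2 or 4 or RZ replicate 3 or 4.

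Bambi encodes a receptor-like membrane protein without a kinase domain that dampens TGF-beta and BMP signalling. Bambi measured 7.03, 6.90, 6.70 and 7.01 on SZ arrays 1 to 4, against 6.68, 6.75, 6.53 and 6.71 on the IDZ arrays and 6.88, 6.89, 7.05 and 6.84 on the RZ arrays. The IDZ arrays lay below all RZ arrays and overlapped with SZ only through SZ replicate 3. None of its 3 differences passed the test: 0.24 between SZ and IDZ (SE 0.10, adjusted p = 0.092), −0.25 between IDZ and RZ (SE 0.10, adjusted p = 0.16) and −0.01 between SZ and RZ (95% interval −0.21 to 0.20, adjusted p = 0.98). Without SZ replicate 3 Bambi was called higher in SZ than in IDZ, by 0.31 (adjusted p = 0.032).

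Atoh8 is a basic helix-loop-helix transcription factor, a class whose members bind DNA, unlike the Id proteins. Atoh8 measured 8.08, 8.20, 8.07 and 7.95 on SZ arrays 1 to 4, against 8.61, 8.77, 8.73 and 8.74 on the IDZ arrays and 7.78, 7.83, 7.75 and 7.86 on the RZ arrays. The zones did not overlap, and IDZ stood above SZ, which stood above RZ. Atoh8 was lower in SZ than in IDZ by a log2 difference of −0.64 (SE 0.08, adjusted p = 4.8e-05) and 1.88-fold higher in IDZ than in RZ (0.91, SE 0.08, adjusted p = 6.3e-06). The smaller difference between SZ and RZ, 0.27 (SE 0.08, adjusted p = 0.030), was 0.26 at an adjusted p of 0.14 with the pair of animals as a block. It also missed the threshold without SZ replicate 1, 2 or 3 or RZ replicate 1, 2 or 3 (0.23 to 0.28, adjusted p = 0.055 to 0.082).

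Dlx5 is a homeobox transcription factor that in mice promotes chondrocyte maturation and bone formation. Dlx5 measured 7.79, 7.86, 8.00 and 7.69 on SZ arrays 1 to 4, against 8.10, 8.33, 8.35 and 8.53 on the IDZ arrays and 6.56, 6.75, 6.94 and 6.79 on the RZ arrays. No 2 zones overlapped, and the gap between the articular arrays and the RZ arrays was wider than that between SZ and IDZ. Dlx5 was 2.96-fold higher in IDZ than in RZ (1.56, SE 0.11, adjusted p = 4.2e-07), 2.11-fold higher in SZ than in RZ (1.07, SE 0.11, adjusted p = 3.3e-06) and lower in SZ than in IDZ by a log2 difference of −0.49 (SE 0.11, adjusted p = 0.0047).

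Counted over the members, 6 of 9 differed between SZ and IDZ at an adjusted p under 0.05, against 26.6% of all 14300 genes. Id1, Id3 and Smad6 were higher in SZ (17.0% of genes were) and Id4, Atoh8 and Dlx5 were lower (9.56% were). The median difference of the 9 genes was 0.12, against −0.03 over all genes. The arrays of SZ and IDZ did not overlap for 5 members, against 25.3% of all genes.

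Between IDZ and RZ 3 of 9 members were called, against 8.80% of genes, and Smad7, Atoh8 and Dlx5 were all higher in IDZ (3.22% of genes were). The median of the 9 genes was 0.40, against 0.01 over all genes. The arrays of IDZ and RZ did not overlap for 8 members, 7 higher and 1 lower in IDZ, against 24.3% of genes. The number called was 6 without SZ replicate 4, with Id2, Id4 and Smad6 added, where 17.9% of genes were called. It was 2 without IDZ replicate 2 or 4 or RZ replicate 3 or 4, where Smad7 was lost. In these 4 settings 4.01% to 5.5% of all clusters were called, against 6.73% with all arrays.

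Between SZ and RZ 6 members were called, against 26.7% of genes, and Id1, Id3, Smad6, Smad7, Atoh8 and Dlx5 were all higher in SZ (14.5% of genes were). The median of the 9 genes was 0.61, against −0.01 over all genes, and the arrays did not overlap for 5 members, against 27.1% of genes. The 3 comparisons share their arrays and are not independent of each other.

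**Figure D2:**
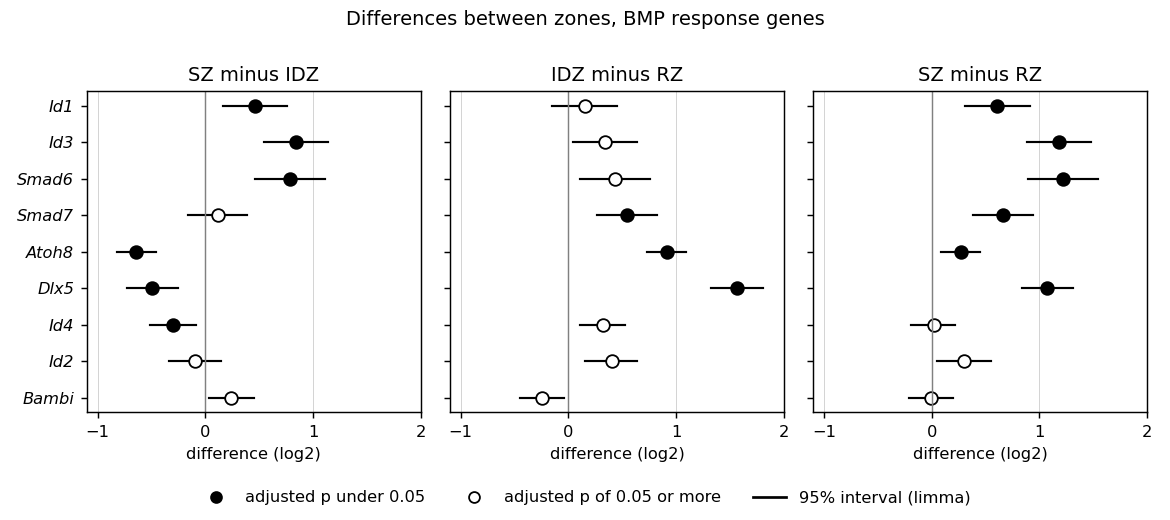
Log2 differences of the 9 BMP response genes (rows) for SZ minus IDZ, IDZ minus RZ and SZ minus RZ (panels), with 95% intervals from limma; filled points passed an adjusted p of 0.05. Atoh8, Dlx5 and Id4 lay left of 0 for SZ minus IDZ, as did Id2 (−0.10), which did not pass. All members but Bambi lay right of 0 for IDZ minus RZ.

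A further pair of contrasts, added after the values were seen, put these patterns as single values. IDZ stood above the mean of SZ and RZ for Dlx5 by 1.03 (SE 0.10, adjusted p = 1.2e-05), for Atoh8 by 0.77 (SE 0.07, adjusted p = 1.2e-05) and for Id4 by 0.31 (SE 0.08, adjusted p = 0.022), where 16.8% of genes were called and 4.66% called higher. Without any 1 of the IDZ replicates the call for Id4 ended (0.29 to 0.32, adjusted p = 0.051 to 0.078). Without SZ replicate 4, where 34.6% of genes were called, Id3 (−0.31, adjusted p = 0.033) and Bambi (−0.23, adjusted p = 0.039) were called lower in IDZ as well, and Bambi also without SZ replicate 3 (−0.28, adjusted p = 0.029). The mean of SZ and IDZ stood above RZ for Dlx5 by 1.32, for Smad6 by 0.82, for Id3 by 0.76, for Smad7 by 0.60, for Atoh8 by 0.59 and for Id2 by 0.35 (adjusted p = 1.7e-07 for Dlx5 to 0.028 for Id2), where 19.2% of genes were called and 9.83% called higher. The value for Id2 was 0.37 at an adjusted p of 0.067 with the pair of animals as a block, and 0.29 to 0.35 at an adjusted p of 0.054 to 0.12 without IDZ replicate 3 or RZ replicate 2, 3 or 4. Id1 was called without SZ replicate 4 or RZ replicate 1 (0.45 for both, adjusted p = 0.0019 and 0.047).

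Correlations between members over the 12 arrays, given as a description, followed the zone means in large part. Id1 correlated with Id3 at r = 0.94 and with Smad6 at 0.89, and Id3 with Smad6 at 0.94. These values include the differences between zones, and after the zone means were taken off Id1 and Id3 correlated at 0.89, Id1 and Smad6 at 0.67 and Id3 and Smad6 at 0.61. Atoh8 correlated with Dlx5 at 0.89 and with Bambi at −0.74, and after the zone means were taken off at 0.45 and −0.26. With the zone means off, Atoh8 lay closer to Id3 (0.79), Id1 (0.74) and Smad6 (0.62) than to Dlx5. Over the 12 arrays Atoh8 correlated with Id3, Id1 and Smad6 at only 0.10, 0.08 and 0.16. SZ replicate 4, the lowest SZ array for Id1, Id3, Smad6 and Atoh8 alike, enters these values, which were not computed without it. Smad7 correlated over the 12 arrays with both Smad6 (0.80) and Dlx5 (0.75), and with the zone means off at 0.56 and −0.02. SZ replicate 4 was the lowest SZ array for 7 of the 9 members, all but Id4 and Bambi, and for 41.3% of all clusters. It lay below the mean of the other SZ arrays by −0.58 for Id1 and Smad6, by −0.48 for Id3 and by −0.15 for Smad7. Without it, the 6 members called between SZ and IDZ were called again, where 45.0% of genes were.

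The SZ samples also carried more RNA of blood vessel and immune cell markers, and in such bulk samples fewer cells of a type and less RNA per cell cannot be told apart. The 16 of 19 endothelial markers measured averaged 8.51 to 9.04 in SZ, 6.65 to 7.01 in IDZ and 6.49 to 6.71 in RZ. Of these, 15 were called higher in SZ than in IDZ and none of the 16 was called by limma between IDZ and RZ (7 were higher in IDZ at an unadjusted p under 0.05, and none was called by unmoderated contrasts). Over all genes, 17.0% were called higher in SZ than in IDZ and 8.80% were called in either direction between IDZ and RZ. Between IDZ and RZ 4 markers were called higher in IDZ without SZ replicate 4 (17.9% of genes were called) and 3 without IDZ replicate 4 (5.5% of clusters). It was 6 from these 2 zones alone (15.2% of clusters) and 1 with the pair of animals as a fixed block (4.28%). The lowest zone mean of a marker was 5.47, for Tek in RZ, and Cdh5, the cadherin of endothelial junctions, was 4.96-fold higher in SZ than in IDZ (adjusted p = 1.8e-08). SZ replicate 4 was the lowest SZ array for the endothelial average. It was also the lowest for 7 of the 9 members, Atoh8 and Dlx5 among them, and for 41.3% of all clusters, a share not taken among clusters as bright as the members.

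Id1, Id3 and Smad6 were higher in SZ than in IDZ, as was the endothelial average, whereas Atoh8, Dlx5 and Id4 were lower in SZ. Smad7, Id2 and Bambi were not called between these zones. The part of the endothelial markers in any of these differences was not tested. Of the other lists, 12 of 12 macrophage markers (8.45 to 9.11 in SZ, 6.70 to 6.96 in IDZ and 6.51 to 7.11 in RZ) and 9 of 11 pericyte and smooth muscle markers (8.82 to 9.21 in SZ, 7.29 to 7.59 in IDZ and 7.28 to 7.44 in RZ) were called higher in SZ than in IDZ. The pericyte marker Cspg4 was called lower in SZ than in IDZ (−0.37, adjusted p = 0.029). The 6 osteoblast markers averaged 8.10 to 8.92 in SZ, 7.42 to 7.73 in IDZ and 7.72 to 8.62 in RZ, with 2 higher and none lower in SZ than in IDZ.

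**Figure D3:**
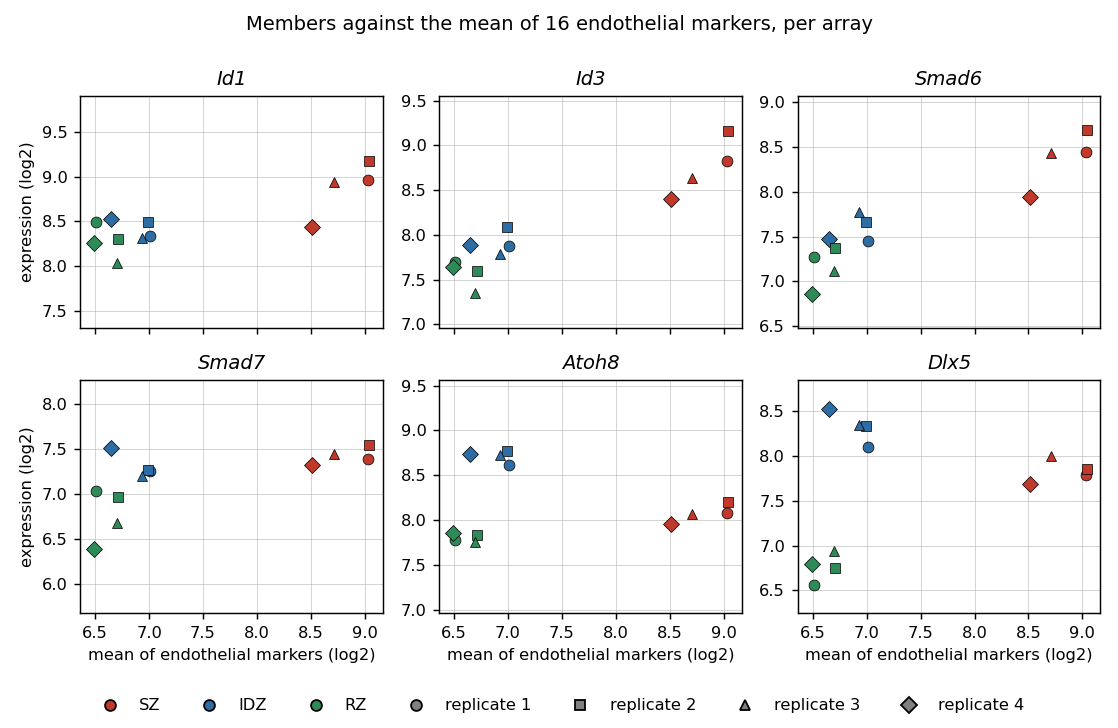
Expression of 6 members (y axis, log2) against the mean of 16 endothelial markers (x axis, log2) on each array, coloured by zone, with symbols for replicates 1 to 4. The SZ arrays lie right of 8.5 and the IDZ and RZ arrays at or left of 7.01; Id1, Id3 and Smad6 are high at the right, whereas Atoh8 and Dlx5 are highest on the IDZ arrays at the left.

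The rest of the pathway was followed through 64 measured genes in 7 lists. Over all genes, 17.0% were called higher and 9.56% lower in SZ than in IDZ. Between IDZ and RZ 8.80% were called (3.22% higher in IDZ), and between SZ and RZ 26.7% (14.5% higher in SZ). Without SZ replicate 4 the shares called in either direction were 45.0%, 17.9% and 34.2%. Of 9 ligands, 4 were higher and 1 lower in SZ than in IDZ, and 2 were higher and 3 lower in IDZ than in RZ. Bmp5 and Bmp4, which encode activating ligands, were higher in SZ than in IDZ by 1.99 and 1.85 (adjusted p = 1.7e-07 and 1.0e-07). Bmp4 averaged 8.34 ± 0.19 in SZ, 6.49 ± 0.27 in IDZ and 6.30 ± 0.08 in RZ (SD, n = 4 each). Bmp7, another activating ligand, was lower in IDZ than in RZ, at 8.11 ± 0.30 in IDZ against 10.21 ± 0.20 in RZ (difference −2.10, adjusted p = 3.5e-06). Bmp3, a BMP family member that opposes BMP signalling, was lower across both boundaries (adjusted p = 2.0e-07 between SZ and IDZ and 9.4e-05 between IDZ and RZ) and averaged 7.54 ± 0.46 in SZ, 9.84 ± 0.18 in IDZ and 11.28 ± 0.10 in RZ. Bmp5 was also higher in IDZ than in RZ (1.28, adjusted p = 6.0e-05). Gdf10, another family member, was higher in SZ than in IDZ (1.39, adjusted p = 3.2e-05) and lower in IDZ than in RZ (−0.92, adjusted p = 0.0047). The median ligand differed by 0.51 between SZ and IDZ and by 0.19 between IDZ and RZ. Without SZ replicate 4 the number lower in SZ than in IDZ was 3, with Gdf2 and Gdf6 added. Both were dim, with means over the 12 arrays of 6.49 and 6.71, against a median of 6.83 over all clusters. Bmp6 was the ligand whose call between IDZ and RZ (0.80, adjusted p = 0.035) ended when IDZ replicate 2, 3 or 4 or RZ replicate 1, 3 or 4 was left out. That brought the number higher in IDZ to 1, as did the pair of animals as a fixed block.

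Of 9 receptors and co-receptors, 4 were higher and 1 lower in SZ than in IDZ, with a median of 0.25, and none was called by limma between IDZ and RZ (1 was higher and 1 lower at an unadjusted p under 0.05, none was called by unmoderated contrasts, and 1 was called without SZ replicate 4). Acvrl1, the type I receptor known from endothelial cells, was higher in SZ than in IDZ by 0.80 (adjusted p = 3.1e-04) and averaged 8.61 ± 0.20 in SZ, 7.81 ± 0.23 in IDZ and 7.44 ± 0.16 in RZ. Bmpr2, the BMP type II receptor, was higher in SZ than in IDZ by 0.61 (adjusted p = 2.6e-04), and Rgma, a co-receptor, was lower by −0.45 (adjusted p = 0.0025). The number higher in SZ than in IDZ was 2 without SZ replicate 3 or IDZ replicate 2 and with the pair of animals as a fixed block. It was 5 without SZ replicate 4, 4 without RZ replicate 3, and 3 without any other 1 array and with the pair as a random block. The weakest of the 4 calls with all arrays, at an adjusted p of 0.045 (limma), was of a dim gene that averaged 5.68 in SZ and 5.40 in IDZ.

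Of 11 secreted antagonists, which bind BMP ligands outside the cell, 3 were higher and 2 lower in SZ than in IDZ, with a median of −0.10. Nbl1 was higher in SZ by 2.82 (adjusted p = 5.3e-09), Chrdl1 by 1.46 (adjusted p = 8.0e-05) and Fst by 0.98 (adjusted p = 1.4e-05), whereas Grem1 (−2.34) and Nog (−1.05, adjusted p = 3.1e-04) were lower. Grem1 was highest in IDZ, where it averaged 10.10 ± 0.14 against 8.71 ± 0.14 in RZ (difference 1.40, adjusted p = 3.4e-04), and Chrdl1 was the other one called there, lower in IDZ than in RZ by −1.43 (adjusted p = 4.0e-04). Between SZ and RZ 2 antagonists were higher and 4 lower in SZ, and 2 or 3 were lower when any 1 array was left out, with 2 without RZ replicate 1 or 2 and with the pair of animals as a block.

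Among 8 genes for SMAD transducers and their regulators, whose median difference between SZ and IDZ was 0.22, Tob1, which encodes a repressor that binds SMADs, was higher in SZ than in IDZ by 0.85 (adjusted p = 0.0012), and Smad9, a BMP-activated SMAD, was lower by −0.94 (adjusted p = 0.0010). None was called by limma between IDZ and RZ (1 was lower in IDZ at an unadjusted p under 0.05, and none was called by unmoderated contrasts). There Tob1 was called lower in IDZ without SZ replicate 4 (−0.41, adjusted p = 0.0098), and 1 gene was called higher and 1 lower from these 2 zones alone. Smad9 was lower in SZ than in RZ (−0.62, adjusted p = 0.018). Without SZ replicate 4, 5 were called higher in SZ than in IDZ, with Smad1 at 0.45, Smurf2 at 0.37, Smurf1 at 0.32 and Ppm1a at 0.30 added to Tob1 at 1.04. In that setting 5 were also higher in SZ than in RZ. Over all genes 45.0% were then called between SZ and IDZ and 34.2% between SZ and RZ. Without IDZ replicate 2 and with the pair of animals as a block 2 were higher in SZ than in IDZ. Smad9 was not called between SZ and RZ without SZ replicate 1 or RZ replicate 1, with the pair of animals as a fixed block, by unmoderated contrasts or from these 2 zones alone.

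Of 11 other BMP-SMAD targets, 5 were higher and 2 lower in SZ than in IDZ, with a median of 0.29. Between IDZ and RZ 2 were called, both lower in IDZ (1 was higher at an unadjusted p under 0.05), with a median of −0.06. Junb, an AP-1 factor, was higher in SZ than in IDZ by 1.07 (adjusted p = 2.5e-05), Gata2 by 0.94 (adjusted p = 2.1e-05) and the cell cycle inhibitor Cdkn1a by 0.88 (adjusted p = 1.6e-04). The bone and cartilage factor Sp7 was lower in SZ than in IDZ by −0.58 (adjusted p = 0.0015). Runx2, which drives chondrocyte hypertrophy and bone formation, averaged 8.40 ± 0.11 in SZ, 8.35 ± 0.06 in IDZ and 9.60 ± 0.06 in RZ, so that it was lower in IDZ than in RZ by −1.24 (adjusted p = 2.9e-07), opposite in direction to Dlx5. Leaving out 1 array took the number lower in SZ than in IDZ to 1 (SZ replicate 2 or 3 or IDZ replicate 2 or 3) and the number lower in IDZ than in RZ to 1 (SZ replicate 1, any IDZ replicate or RZ replicate 2, 3 or 4) or to 3 (SZ replicate 4), and the pair of animals as a fixed block took both to 1.

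A list of 11 genes held E proteins, with which the Id proteins pair, and other bHLH factors. Of these, 6 were higher and 1 lower in SZ than in IDZ, with a median of 0.48. The genes named here are bHLH factors other than the E proteins. Twist1 was higher in SZ than in IDZ by 1.39 (adjusted p = 4.9e-07), the tendon factor Scx by 0.88 (adjusted p = 2.4e-05) and the Notch target Hes1 by 0.76 (adjusted p = 1.1e-04). Bhlhe41 ran the other way across both boundaries, at 8.44 ± 0.22 in SZ, 9.33 ± 0.09 in IDZ and 10.51 ± 0.06 in RZ. Between IDZ and RZ Bhlhe40 (0.72, adjusted p = 6.7e-04) and Twist2 (0.42, adjusted p = 0.020) were higher in IDZ, and the number higher was 1 without IDZ replicate 1, 3 or 4 or RZ replicate 2 or 4 and 4 without SZ replicate 4. Without SZ replicate 4, 2 genes in place of 1 were lower across each of the 3 comparisons.

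Of 5 genes known to respond to TGF-beta, 3 were higher in SZ than in IDZ, namely Pmepa1 (0.75, adjusted p = 1.4e-04), Ltbp2 (0.70, adjusted p = 2.7e-05) and Tgif1 (0.46, adjusted p = 0.0012). Pmepa1 and Tgif1 were lower in IDZ than in RZ (−0.75 and −0.70, adjusted p = 5.7e-04 and 1.4e-04). The other 3 genes were higher in IDZ without being called, 2 of them at an unadjusted p under 0.05, and the median of the 5 was 0.09. Without SZ replicate 4 or RZ replicate 1, 1 gene was called higher in IDZ.

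**Figure D4:**
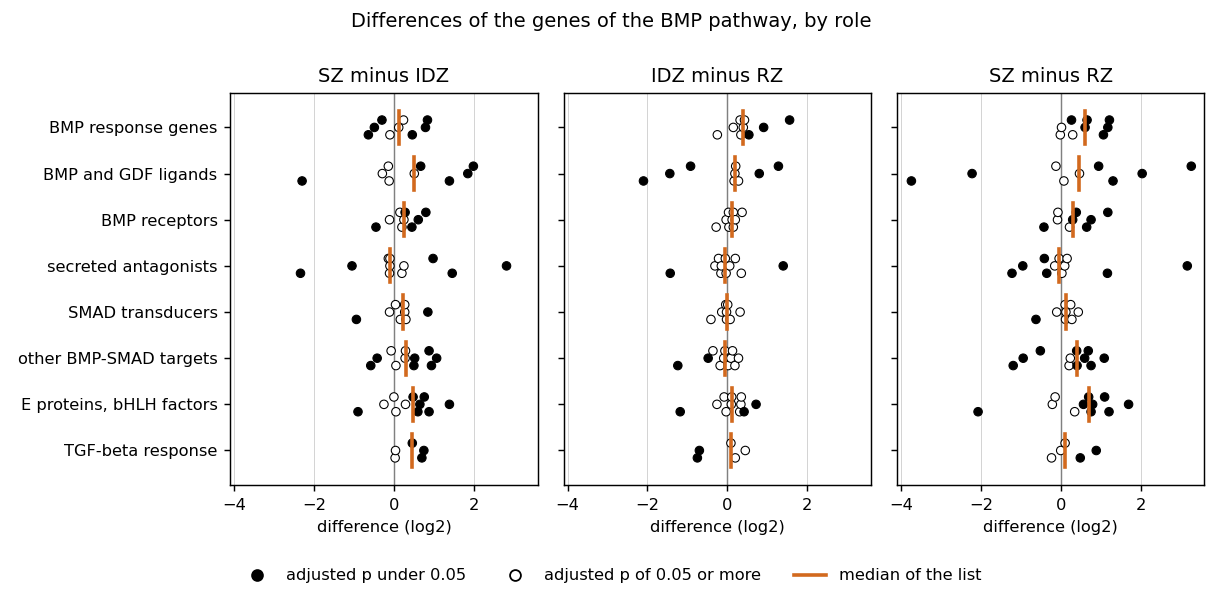
Log2 differences of every measured gene (points) of the BMP response genes and of 7 lists of the pathway (rows) for SZ minus IDZ, IDZ minus RZ and SZ minus RZ (panels); filled points passed an adjusted p of 0.05 and the line is the median of the list. For IDZ minus RZ the median of the BMP response genes is 0.40, beside medians between −0.06 and 0.19 for the 7 other lists.

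The genes most like each member in level over the 12 arrays were taken among the 8296 genes above the median level, as a description of shared zones and shared arrays. Ets2, Hes1 and Zcchc24 followed Id3 (r = 0.98 each), and Hes1 averaged 7.82 in SZ, 7.05 in IDZ and 6.71 in RZ. Elk3, Pkd1 and Itpr2 followed Smad6 (0.98 each), and Cyfip1, Cflar and Pip5k1c followed Id1 (0.97 each). These 6 genes were highest in SZ on average. Ptgds, Acot7 and Npas2 followed Dlx5 (0.98 each), and Hils1, B3galt1 and Enpp2 followed Atoh8 (0.97, 0.97 and 0.96). Enpp2, which encodes autotaxin, averaged 8.45 in SZ, 9.39 in IDZ and 7.87 in RZ. Tgfbi and Sirpa (0.94 each) and Ppic (0.93) followed Smad7, with Tgfbi, an extracellular matrix gene, at 12.06 in SZ, 12.02 in IDZ and 11.57 in RZ. For Id2 (Prdx4, Lox and Qpctl), Id4 (Mapk1ip1, Lpin3 and Cdh23) and Bambi (Mfsd9, Marcksl1 and H2bc12) the likeness was weaker, between 0.85 and 0.89.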

How the data were processed

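RNA of the 12 samples was hybridized to Affymetrix Rat Gene 1.0 ST arrays. In Partek 6.6 the authors ran RMA, which corrects background, equalizes the distributions of the arrays and fits 1 value per probe set. The deposited values are its log2 expression per transcript cluster. The distributions of these deposited values were not equal, with array medians from 6.76 to 6.90 and interquartile ranges from 2.24 to 2.91. The platform annotation gave 1 symbol for 15068 of 27342 clusters, several for 323 and none for 11951, and a gene was its brightest cluster. Every cluster entered a limma fit (limma 3.58.1 under R 4.3.3) of the zone means on all 12 arrays, since the study used a one-way model without a block, and Benjamini-Hochberg adjustment of p ran over all 27342 clusters per comparison. A gene was called at an adjusted p under 0.05 with no minimum fold. The fit was tested on simulated data without zone differences other than the shifts put in. Of 50 clusters shifted 1.5-fold it called 26 to 29 per comparison, and of 50 shifted 2-fold it called 46 or 47.

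IDZ and RZ samples of 1 number shared animals, so the numbers pair these samples, and SZ samples were put with the pair that holds their animal. Deviations of same-numbered IDZ and RZ arrays correlated at 0.0184, 0.022, 0.0274 and 0.205, and the consensus correlation within animal pairs was −0.141. Alternatives were blocks for animals, other variances, scalings and filters, and each array left out.

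The members and lists were chosen with earlier results of these data known. Named were all members, up to 4 called genes of each pathway list per comparison, those with the largest difference, and the 3 genes most like each member, and genes outside this rule were picked after their values were seen: Cdh5, Tek and Cspg4 from the marker lists, and Bmp6, Gdf2, Gdf6, Smad1, Smurf1, Smurf2 and Ppm1a because their calls changed under an alternative. Without a fold minimum many differences are small, and RMA compresses changes of dim genes. The number of arrays limits the precision. Python 3.11.15 with pandas 2.3.3 and matplotlib 3.10.9 wrote the tables and figures.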

Additional observations from a re-analysis of the deposited data

How the results depend on the processing

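Of 967 values of the members under the alternatives, 863 kept their direction and their side of the threshold, 64 were no longer called, 31 were newly called and 9 changed sign. The sign changed for differences near 0 between SZ and RZ: Id4, at 0.02 with all arrays, was −0.06 with the pair of animals as a fixed replicate block, −0.01 with median centring, −0.02 with a second quantile normalization and between −0.06 and 0.07 with 1 array left out, and Bambi, at −0.01, was 0.0 with that block and between −0.05 and 0.06 with 1 array left out. With a 2-fold minimum 0 members were called between SZ and IDZ (3.94% of all clusters were), 1 between IDZ and RZ (0.918%) and 3 between SZ and RZ (4.54%). With that minimum 1 was called for IDZ against the mean of SZ and RZ (0.955%), and 1 for SZ and IDZ together against RZ (2.03%). Between IDZ and RZ, where 6.73% of all clusters were called, 7 members were called from these 2 zones alone (15.2% of clusters), 5 without dim clusters, where Bambi was not tested (14.1% of the 13671 clusters left), and 7 after a second quantile normalization (8.75%), which gave 5 for IDZ against the mean of SZ and RZ (17.9%, against 14.4%). With 1 array left out, 4 to 6 members were called between SZ and IDZ, where 18.0% to 41.6% of all clusters were. Between IDZ and RZ 2 to 6 were called (4.01% to 14.4% of clusters), and between SZ and RZ 5 to 7 (17.3% to 28.8%). The counts were 2 to 5 for IDZ against the mean of SZ and RZ (9.16% to 31.0%), and 5 to 7 for SZ and IDZ together against RZ (9.97% to 18.8%). The highest counts for IDZ and RZ and for IDZ against the mean came without SZ replicate 4.

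Over all clusters that omission raised the calls to 11367 for SZ and IDZ (6290 with all arrays), 3925 for IDZ and RZ (1840) and 8463 for IDZ against the mean (3933). The fixed block for animal pairs, which holds the shared animals of IDZ and RZ, lowered these counts to 4102, 1170 and 2589, and besides the calls for Id1, Smad7, Atoh8 and Id2 given above it changed no call of a member. The random block and the block for label numbers ended the call of Id4 between SZ and IDZ, and the block for label numbers also that of Atoh8 between SZ and RZ (0.27, adjusted p = 0.059). Clusters called between IDZ and RZ numbered 4146 from these 2 zones alone and 1097 to 1223 without IDZ replicate 1, 2 or 3 or RZ replicate 1 or 2, and those for IDZ against the mean 2504 without IDZ replicate 2. With a 2-fold minimum the clusters called numbered 1077 (SZ and IDZ), 251 (IDZ and RZ), 1241 (SZ and RZ), 261 (IDZ against the mean) and 554 (SZ and IDZ together against RZ). Taking every cluster by itself changed nothing, since each member had 1. The cause of these changes was not tested.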
